A study of Drosophila melanogaster with 8 samples.

Results

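Sorted brain cells of flies housed alone were compared between dTip60E431Q and control, to ask which transcripts the dominant negative Tip60 changed in the absence of enrichment. The comparison used 4 of the 8 arrays of the study, 2 from dTip60E431Q ISO and 2 from control ISO, chosen by their sample titles. It covered every probe set on the array except the Affymetrix controls, 18769 in all, of which 13647 carried a single gene symbol and stood for 11982 genes. The other 4 arrays, dTip60E431Q EE and control EE, entered the estimate of the spread and served to follow each gene in group-housed flies.

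Tip60 is a histone acetyltransferase (HAT), an enzyme that adds acetyl groups to histones and so opens chromatin for transcription, and it works inside a multi-subunit complex that also exchanges histone variants. In the fly it acts in the mushroom body (MB), the brain centre for olfactory learning, whose intrinsic cells are the Kenyon neurons. Isolation (ISO) and environmental enrichment (EE) here mean housing alone or housing in a group, a social contrast known to change the structure of the fly brain.

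In the dTip60E431Q groups a Tip60 with a defective HAT domain was expressed from a UAS transgene together with the membrane marker mCD8-GFP, and in the control groups UAS-mCD8-GFP alone was expressed. All groups shared the OK-107 GAL4 driver and the GFP marker, so neither is a difference between them. The driver is strongest in Kenyon neurons but is also active in the optic lobes, the pars intercerebralis and the suboesophageal ganglion. ISO flies were kept as 1 fly per vial for 5 days, EE flies as 30 per vial for 5 days. The labels give an age of 5 days for every array except dTip60E431Q ISO replicate 2, which is labelled 6 days. RNA came from GFP-positive cells sorted by FACS from pooled brains of males and females. The sources do not say whether a group's 2 arrays were separate pools of brains, and p-values therefore cover only the array-to-array spread, which could be technical.

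The labels call the cells Kenyon neurons, and the arrays also detected markers of other cells. The Kenyon neuron transcription factor dac had a log2 signal of 9.90 and 9.86 in dTip60E431Q ISO, against 10.11 and 9.78 in control ISO, and the neuronal RNA-binding protein gene elav had 11.34 and 11.34 against 11.70 and 11.33. Yet repo, the transcription factor that defines glia, stood at 10.25 and 10.25 in dTip60E431Q ISO and 10.23 and 10.10 in control ISO, and the photoreceptor arrestin gene Arr2 at 13.24 and 13.16 against 12.31 and 12.98. Array medians lay between 6.41 and 6.50 on the same log2 scale. The 2 dTip60E431Q ISO arrays were close to each other, their probe set differences having an SD of 0.183, while the SD was 0.479 for the control ISO pair, 0.372 for dTip60E431Q EE and 0.358 for control EE. Part of the control ISO spread lay in heat shock genes, since Hsp68 had 10.05 and 10.03 in dTip60E431Q ISO but 8.86 in replicate 1 and 12.97 in replicate 2 of control ISO. In bulk RNA of this kind, fewer cells of a type and less RNA per cell cannot be told apart.

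Isolated dTip60E431Q flies differed from isolated controls in 150 probe sets, or 0.799% of those tested, of which 116 were higher (0.618%) and 34 lower (0.181%) in dTip60E431Q. A probe set was called when its Benjamini-Hochberg adjusted p from limma was under 0.05 and the fold at least 1.3. Counting 1 probe set per gene, 102 genes were called higher (0.851%) and 19 lower (0.159%). Without adjustment of p, 1904 probe sets passed both limits, 984 of them higher and 920 lower. Of the 116 called higher, 98 differed by over 2-fold, 65 by over 4-fold and 26 by over 16-fold. Of the 34 called lower, 25, 12 and 4 did. Over all probe sets 9249 lay above 0 and 9520 below, with a median log2 difference of -0.0039.

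Many of these differences set a clear signal against one near background. A probe set was flagged as low signal when its mean over the 4 ISO arrays was below 6.4648, the median of such means. This held for 60 of the 116 higher and 13 of the 34 lower calls, and in 90 and 21 calls the mean of the lower group was below that median. A signal that low may be background, which leaves the size of those differences uncertain. Among the calls named below, low signal applied to Jon65Aii, Jon99Ci, Jon66Ci, Jon66Cii, mag, thetaTry, Mal-A2, Ser6, Peritrophin-15a, Peritrophin-15b, hiro, CG42397, CG10477, Sardh, Ugt37A3, Cyp309a1, Cyp4d1, MtnC, ninaD, Mis12 and CG6891, which were higher, and to Or46a, Antp, fau and CG40298, which were lower. In 26 higher and 13 lower calls both group means were above it.

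**Figure D1:**
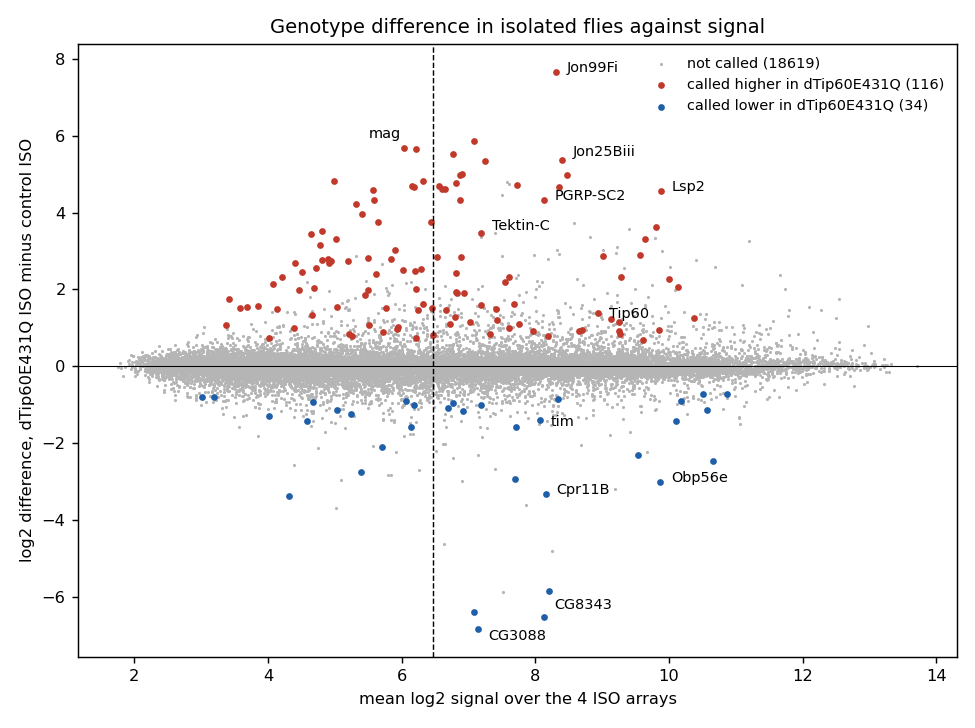
Each point is 1 of the 18769 probe sets, with its mean log2 signal over the 4 ISO arrays on the x axis and the log2 difference of dTip60E431Q ISO minus control ISO on the y axis, and the dashed line marks the median of mean signals (6.46). Red points are the 116 probe sets called higher and blue points the 34 called lower in dTip60E431Q, and the largest differences reach 7.66 for Jon99Fi and -6.84 for CG3088.

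The targeted gene was higher in dTip60E431Q. Tip60 had log2 signals of 9.64 and 9.64 in dTip60E431Q ISO, against 8.41 and 8.07 in control ISO. The array does not separate the transgene's mRNA from that of the endogenous gene. The difference was 1.40 (SE 0.15, adjusted p = 0.00974, n = 2 arrays per group), a 2.63-fold higher signal. No other measured subunit of the Tip60 complex was called. The 13 measured members, Tip60 included, had a median difference of 0.07, and after Tip60 the ATPase pont stood at 0.20 (SE 0.13, adjusted p = 0.588) and Brd8 at 0.17 (SE 0.14, adjusted p = 0.667). The scaffold dom, the ATPase rept and the histone variant gene His2Av were within 0.05 of 0.

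A small group of genes followed the genotype in both housings. Tektin-C, which encodes a filament protein of cilia and sperm tails, had 8.81 and 9.02 in dTip60E431Q ISO, against 5.53 and 5.37 in control ISO. In group-housed flies it had 8.79 and 8.52 in dTip60E431Q EE, against 5.47 and 4.95 in control EE. All 4 dTip60E431Q arrays thus lay above all 4 control arrays, by 3.46 under ISO (SE 0.20, adjusted p = 0.000397) and 3.45 under EE (SE 0.20, adjusted p = 0.0046). Mis12, a kinetochore component, was higher by 1.61 under ISO (SE 0.13, adjusted p = 0.00245) and 1.57 under EE. HipHop, a protein of the telomere cap, was higher by 1.27 (SE 0.12, adjusted p = 0.0043) and 0.99, and tut, which represses translation in male germ cells, by 1.15 (SE 0.13, adjusted p = 0.0116) and 1.45. With Tip60 itself, CG6891 and 2 probe sets without a symbol, these made 8 probe sets called higher in both housings, 6.9% of the 116 under ISO and 72.7% of the 11 under EE.

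The lists to which these genes belong did not move with them. Of 26 measured male germ line genes, Tektin-C and tut were called higher, against 0.851% of all genes, and none lower. The list's median was -0.23, with 23 of the 26 at low signal. Of the others, can stood at -1.21 (adjusted p = 0.121) and the protamine gene ProtB at -0.66 (adjusted p = 0.376). Mst84Dc had 5.00 and 5.08 in dTip60E431Q ISO, against 7.67 and 5.16 in control ISO, so that the higher of the control values came from replicate 1 alone. HipHop was the only 1 of 14 telomere and transposon silencing genes and Mis12 the only 1 of 16 cell cycle genes to be called.

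Lower in both housings was gkt, which encodes a tyrosyl-DNA phosphodiesterase that repairs DNA ends, with 6.97 and 6.87 in dTip60E431Q ISO, against 8.38 and 8.60 in control ISO. The difference was -1.57 (SE 0.17, adjusted p = 0.00889), and under EE it was -1.40 (SE 0.17, adjusted p = 0.046). The 3 probe sets of gkt did not all lie on the same side of 0. The second was not called and stood at -0.66 under ISO (adjusted p = 0.08) and -0.65 under EE (adjusted p = 0.185). The third, at low signal, stood at 0.16 under ISO (adjusted p = 0.807). Together with 1 probe set without a symbol, gkt made the 2 probe sets called lower in both housings, 5.88% of the 34 and 8.7% of the 23 called lower under EE. The insulator protein gene mod(mdg4) was lower by 0.97 under ISO (SE 0.13, adjusted p = 0.0315) at 1 of its 22 probe sets, and that probe set stood at -0.90 under EE (adjusted p = 0.0876). GILT3, of a family of lysosomal thiol reductases, was at -0.86 (SE 0.12, adjusted p = 0.0375) and stood at -0.98 under EE (adjusted p = 0.0547).

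The largest single increase was in a Jonah gene. The Jonah genes encode serine proteases that the gut secretes, and 8 of the 13 measured were called higher and none lower, against 0.851% and 0.159% of all genes. All 13 lay above 0, with a median of 3.02 beside 0.02 over all genes, and all 13 passed the unadjusted threshold, as did 6.78% of all genes in that direction and 3.61% in the other. Averaged over the 13 genes, the log2 signal was 8.26 and 8.25 in dTip60E431Q ISO, against 4.82 and 5.00 in control ISO. The same average was 5.25 and 4.78 in dTip60E431Q EE and 5.11 and 4.35 in control EE, so dTip60E431Q ISO stood above the other 3 groups.

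Jon99Fi had 12.22 and 12.07 in dTip60E431Q ISO, against 5.48 and 3.49 in control ISO. The difference of 7.66 (SE 0.65, adjusted p = 0.00318) was the largest of all probe sets. Jon25Biii had 11.10 and 11.07 against 5.79 and 5.65, a difference of 5.36 (SE 0.15, adjusted p = 2.34e-05). Jon65Ai was higher by 4.97 (SE 0.19, adjusted p = 5.44e-05), its chromosomal neighbour Jon65Aii by 4.70 and Jon44E by 4.61. Jon99Ci was higher by 4.83, Jon66Ci by 1.52 and Jon66Cii by 0.73, all at low signal, as was Jon65Aii. The 5 Jonah genes not called stood between 0.51 (Jon25Bi) and 3.02 (Jon65Aiii). Jon65Aiii had 10.56 and 10.48 in dTip60E431Q ISO, against 5.93 and 9.08 in control ISO (adjusted p = 0.353).

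Further large increases lay outside the Jonah family, and apart from mag and thetaTry these genes were not in the midgut and trypsin lists. The lipase gene mag had 8.92 and 9.15 in dTip60E431Q ISO, against 3.69 and 3.07 in control ISO, a difference of 5.66 (SE 0.29, adjusted p = 0.000222). PGRP-SC2, an amidase that cuts bacterial peptidoglycan, had 10.30 and 10.30 against 5.94 and 5.99, a difference of 4.34 (SE 0.19, adjusted p = 0.000118). These values were nearly constant within each group. Acbp5, which encodes an acyl-CoA-binding protein, was higher by 4.78 (SE 0.41, adjusted p = 0.00339), thetaTry, a trypsin, by 3.45 (SE 0.14, adjusted p = 7.63e-05) and the protease gene yip7 by 4.66 (SE 0.71, adjusted p = 0.0447). Peritrophin-15a and Peritrophin-15b, chosen after their values were seen, encode proteins of the chitin lining of the gut and were higher by 2.74 and 1.49. The antigen 5-related gene Ag5r2 was higher by 2.84 (SE 0.22, adjusted p = 0.00222) and hiro by 3.75 (SE 0.14, adjusted p = 4.96e-05). Of genes known only by a CG number, CG18180 led at 5.87, before CG42397 at 5.67, CG8560 at 5.53, CG17633 at 5.33 and CG18493 at 5.00.

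Most members of the other midgut lists were not called. Of all genes, 0.851% were called higher, and 6.78% were higher and 3.61% lower at the unadjusted threshold. Among 9 trypsins, thetaTry alone was called, 5 passed the unadjusted threshold and the median was 0.76. Among the 31 other midgut genes, mag, the maltase gene Mal-A2 (1.53) and the serine protease gene Ser6 (2.13) were called, 8 were higher and 1 lower at the unadjusted threshold, and the median was 0.33. GATAe, the transcription factor that maintains midgut identity, had 5.26 and 5.56 in dTip60E431Q ISO, against 3.19 and 5.30 in control ISO, with all 4 values below the array medians. alphaTry had 9.48 and 9.39 against 4.22 and 8.87, so that 1 control array was close to the dTip60E431Q values. Averaged over the 31 other midgut genes, the signal was 5.49 and 5.53 in dTip60E431Q ISO and 4.67 and 5.13 in control ISO. The part of gut RNA in these arrays was not tested.

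**Figure D2:**
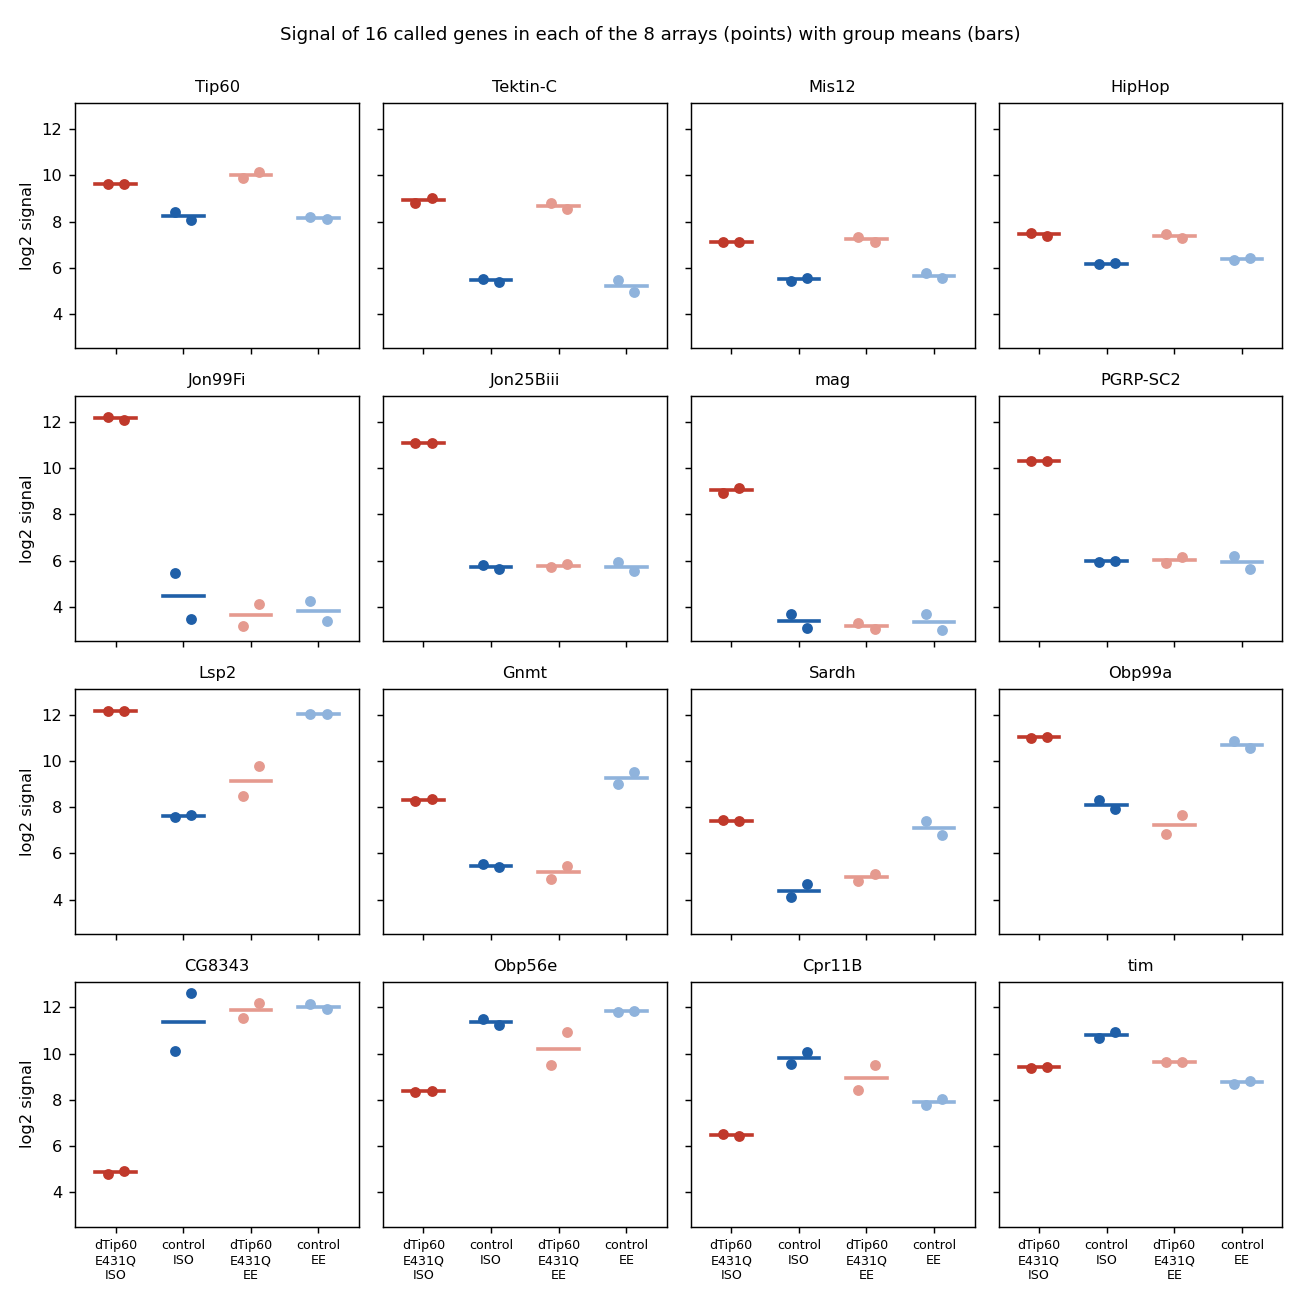
Log2 signal (y axis) of called genes in each array, with dTip60E431Q ISO, control ISO, dTip60E431Q EE and control EE from left to right, points for the 2 arrays of a group and bars for their mean. The upper row is higher in dTip60E431Q in both housings (Tip60 by 1.40 under ISO and 1.87 under EE), the next is high in dTip60E431Q ISO alone (Jon25Biii at 11.10 and 11.07), the next is high in dTip60E431Q ISO and control EE (Lsp2 at 12.14 and 12.17 and at 12.03 and 12.02), and the lowest row holds genes lower in dTip60E431Q ISO than in control ISO.

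Genes of the fat body, the fly's storage and metabolic tissue, formed another group of increases. Of 12 measured, 4 were called higher, against 0.851% of all genes, and none lower. At the unadjusted threshold 9 were higher, against 6.78% of all genes. All 12 lay above 0 and the median was 1.39. The storage protein gene Lsp2 had 12.14 and 12.17 in dTip60E431Q ISO, against 7.56 and 7.65 in control ISO, a difference of 4.55 (SE 0.36, adjusted p = 0.00241). Gnmt, whose enzyme methylates glycine to sarcosine, had 8.27 and 8.35 against 5.52 and 5.40 (2.85, SE 0.23, adjusted p = 0.00266). Neither gene overlapped between the groups, which their choice by these same arrays makes likely. Sardh, which turns sarcosine back into glycine, was higher by 3.02 (SE 0.25, adjusted p = 0.00266). The increase of tobi, whose product is an alpha-glucosidase and which responds to insulin-like peptides, was 3.31 (SE 0.32, adjusted p = 0.00544).

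Uncalled members of the fat body list included the secreted protein gene fit, at 2.76 (adjusted p = 0.0631), and the yolk protein genes Yp3, at 1.54 (adjusted p = 0.0798), and Yp2, at 1.25 (adjusted p = 0.0777). For fit the control arrays differed, with 11.74 and 11.83 in dTip60E431Q ISO, against 8.20 and 9.85 in control ISO. The lipid carrier precursor gene apolpp and Yp1 stood at 0.48 and 0.18. Averaged over the 12 genes, the signal was 10.15 and 10.16 in dTip60E431Q ISO, against 8.23 and 8.53 in control ISO. The part of fat body RNA in these arrays was not tested.

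The fat body genes took the opposite direction in group-housed flies. Lsp2 had 8.47 and 9.77 in dTip60E431Q EE, against 12.03 and 12.02 in control EE (-2.90, SE 0.36, adjusted p = 0.051), and Gnmt had 4.88 and 5.47 against 9.02 and 9.53 (-4.10, SE 0.23, adjusted p = 0.0046). The list's median was -1.41 under EE. Signals were thus high in dTip60E431Q ISO and control EE and low in control ISO and dTip60E431Q EE. The test of the difference between the housings gave 6.95 for Gnmt (adjusted p = 0.000361) and 7.45 for Lsp2 (adjusted p = 0.00144). In all, 10 probe sets were called higher under ISO and lower under EE, 8.62% of the 116 and 43.5% of the 23, and none was called in the reverse way. They included tobi, Sardh, Gnmt and Obp99a, and, chosen after their values were seen, Tdh, which encodes a threonine dehydrogenase (1.09 under ISO and -1.09 under EE).

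Enzymes of one-carbon metabolism lay around Gnmt and Sardh. Of 10 genes of glycine, sarcosine and methionine metabolism, 3 were called higher, against 0.851% of all genes, and none lower. Of the 10, 9 lay above 0 and the median was 0.48. The third was Nmdmc, a mitochondrial folate enzyme, with 8.13 and 8.19 in dTip60E431Q ISO, against 6.49 and 6.85 in control ISO (1.49, SE 0.18, adjusted p = 0.0161). Shmt, which couples serine and glycine to folate, stood at 1.58 (adjusted p = 0.0815), and Ahcy, which hydrolyses S-adenosylhomocysteine, at 0.60 (adjusted p = 0.271). Chosen after their values were seen, the purine synthesis gene Gart was higher by 2.31 (SE 0.35, adjusted p = 0.0458) and the xanthine dehydrogenase gene ry by 1.21 (SE 0.15, adjusted p = 0.0202).

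Several detoxification and metal genes were called higher and none lower. Of 69 glutathione and UDP-glycosyl transferases, 3 were called higher, against 0.851% of all genes, 16 were higher at the unadjusted threshold, against 6.78%, 2 were lower there, against 3.61%, and the median was 0.15. Ugt37A3 led them at 3.15 (SE 0.24, adjusted p = 0.00212, low signal), before GstD3 at 1.14 (SE 0.10, adjusted p = 0.00427) and Ugt49B1 at 0.91. GstD3 had 9.81 and 9.83 in dTip60E431Q ISO, against 8.68 and 8.67 in control ISO. Of 83 cytochrome P450 genes, Cyp309a1 (2.54) and Cyp4d1 (1.08) were called higher, against 0.851% of all genes, and none lower, both at low signal. At the unadjusted threshold 11 were higher, against 6.78%, and 6 lower, against 3.61%. The P450 differences reached down to -2.70 and their median was 0.08. The metallothionein gene MtnC was higher by 2.01 (SE 0.20, adjusted p = 0.00706), and MtnB and MtnD stood at 1.46 and 0.91 (adjusted p = 0.0941 and 0.0698), while MtnA stood at 0.02, so that all 5 metallothioneins lay above 0, with a median of 0.91.

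Immune genes gave a single antimicrobial call in each direction. Drs, the antifungal peptide of the Toll pathway, had 11.19 and 11.10 in dTip60E431Q ISO, against 8.95 and 8.79 in control ISO (2.28, SE 0.21, adjusted p = 0.00445). Def and DptB stood at 2.02 and 1.96 (adjusted p = 0.29 and 0.227), and for Def the control arrays held 5.84 and 8.15. Of the 11 measured peptides Drs alone was called, against 0.851% of all genes called higher. At the unadjusted threshold 4 of the 11 were higher, against 6.78% of all genes, and the list's median was 0.54. Listericin, an antibacterial peptide gene outside that list, had 9.45 and 9.39 in dTip60E431Q ISO, against 11.48 and 12.29 in control ISO, and was lower by 2.47 (SE 0.33, adjusted p = 0.026). Of 15 hemocyte markers none was called, 6 were higher at the unadjusted threshold, against 6.78% of all genes, and the median was 0.32. The collagen IV genes vkg and Col4a1 stood at 0.60 and 0.63 (adjusted p = 0.0703 and 0.103).

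Among calls, the deepest decreases were in 4 genes known only by CG numbers. CG3088 had 3.85 and 3.60 in dTip60E431Q ISO, against 8.93 and 12.18 in control ISO, a difference of -6.84 (SE 0.92, adjusted p = 0.0268). CG8343 had 4.80 and 4.94 against 10.13 and 12.64 (-6.51, SE 0.71, adjusted p = 0.00996), and its neighbour CG11211 had 5.37 and 5.20 against 9.88 and 12.37 (-5.84, SE 0.71, adjusted p = 0.0187). In each of them the dTip60E431Q values lay far below both control values, and the control values differed by more than 2 log2 units. CG8329 had 4.11 and 3.66 against 8.70 and 11.84 (-6.39, SE 0.89, adjusted p = 0.0313). CG40298 followed at -3.39 (SE 0.50, adjusted p = 0.0406, low signal). In group-housed flies of both genotypes CG3088, CG8343, CG11211 and CG8329 had log2 signals of 10.23 or more, and the genotype differences there ran from -0.61 for CG8329 to -0.02 for CG3088.

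Both directions appeared among odorant-binding proteins, the soluble carriers of odours in sensory hairs. Obp56e had 8.34 and 8.39 in dTip60E431Q ISO, against 11.50 and 11.25 in control ISO, and was lower by 3.01 (SE 0.40, adjusted p = 0.0266). Its family member Obp56g had 4.62 and 4.54 against 8.37 and 12.55, a difference of -5.88 that was not called (adjusted p = 0.167). Obp99a moved the other way, with 10.99 and 11.04 in dTip60E431Q ISO, against 8.29 and 7.93 in control ISO (2.91, SE 0.27, adjusted p = 0.0043). Of the 47 measured family members Obp56e and Obp99a were the only calls, and the median was -0.05. Of all genes 0.851% were called higher and 0.159% lower. At the unadjusted threshold 7 were higher and 9 lower, against 6.78% and 3.61% of all genes. None of 165 chemoreceptors was called by its brightest probe set. Or46a was called lower by 0.80 at 1 of its 3 probe sets, where signals lay between 2.72 and 3.65.

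A pair of further decreases had the opposite sign under EE. The cuticle protein gene Cpr11B had 6.54 and 6.45 in dTip60E431Q ISO, against 9.57 and 10.05 in control ISO (-3.32, SE 0.34, adjusted p = 0.00721). Under EE it had 8.42 and 9.51 in dTip60E431Q, against 7.80 and 8.02 in control, so that the difference turned to 1.05. Cpr11B was the only call among 102 cuticle proteins, 89 of them at low signal, against 0.159% of all genes called lower and 0.851% called higher. At the unadjusted threshold 9 of the 102 were higher and 6 lower, against 6.78% and 3.61% of all genes. The gene fau was lower by 1.23 (SE 0.12, adjusted p = 0.00591) at 1 of its 5 probe sets and stood at 0.85 under EE.

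The clock gene tim, whose protein together with PER represses CLK and CYC, was lower at both of its probe sets. The brighter had 9.40 and 9.41 in dTip60E431Q ISO, against 10.70 and 10.94 in control ISO (-1.41, SE 0.12, adjusted p = 0.00318), and the dimmer differed by -1.40 (SE 0.15, adjusted p = 0.0103). Under EE the brighter stood at 0.88 (adjusted p = 0.0686), with 9.63 and 9.65 in dTip60E431Q, against 8.68 and 8.83 in control. The order of the genotypes thus turned round between the housings. Of 19 clock genes tim alone was called, against 0.159% of all genes called lower. At the unadjusted threshold 4 of the 19 were lower and 1 higher, against 3.61% and 6.78% of all genes. Of the 19, 8 lay above 0, and uncalled members included per at -0.60 (adjusted p = 0.0774), vri at -0.98 (adjusted p = 0.173), cwo at -0.50 (adjusted p = 0.126) and Clk at 0.45 (adjusted p = 0.213). The median of the 19 was -0.02, and the sources used here do not give the time of day at which flies were taken.

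Few regulators were called lower. Antp, a homeotic gene, was lower by 0.94 (SE 0.15, adjusted p = 0.0465, low signal) at 1 of its 3 probe sets. B52, an SR splicing factor, had 9.64 and 9.82 in dTip60E431Q ISO, against 10.76 and 10.51 in control ISO (-0.90, SE 0.14, adjusted p = 0.0488), at 1 of its 5 probe sets. Eip63E, a cyclin-dependent kinase gene, had 10.24 and 10.08 against 10.86 and 10.89 (-0.71, SE 0.11, adjusted p = 0.046). The adjusted p-values were close to the threshold. At the called probe sets the groups did not overlap, which their choice by these same arrays makes likely.

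Genes of the neurons themselves were not called. All 17 Kenyon cell genes lay below 0, with a median of -0.15 and none past the threshold, adjusted or not, at the fold of 1.3. The largest of these differences were those of ey, a transcription factor of MB development, at -0.38 (SE 0.20, adjusted p = 0.484), br at -0.35 and the neuropeptide gene sNPF at -0.33 (adjusted p = 0.341). For ey the arrays had 7.43 and 7.57 in dTip60E431Q ISO, against 8.06 and 7.70 in control ISO. Averaged over the 17 genes, the signal was 9.55 and 9.50 in dTip60E431Q ISO, against 9.84 and 9.56 in control ISO, so the second control array was level with dTip60E431Q. Of 17 pan-neuronal genes none was called, 13 lay below 0 and the median was -0.09.

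Learning, channel and activity genes held 1 call. Tequila, a protease gene linked to long-term memory, carries the symbol teq on the array and was therefore not counted in the learning and memory list. It had 11.05 and 10.95 in dTip60E431Q ISO, against 9.64 and 9.86 in control ISO, and teq was called higher by 1.25 (SE 0.18, adjusted p = 0.0375) at 1 of its 2 probe sets. Of the 26 learning and memory genes counted none passed, and the furthest from 0 was Arc1, which encodes a capsid-forming synaptic protein, with 12.10 and 12.31 in dTip60E431Q ISO, against 11.11 and 11.67 in control ISO (0.81, adjusted p = 0.173). Of 31 ion channels and fast receptors none passed, and the potassium channel gene Shab was lowest at -0.59. Of 11 activity-regulated genes none passed, with Atf3 at -0.68 (adjusted p = 0.0998). Of 29 neuropeptides none passed, while Ilp5, an insulin-like peptide of pars intercerebralis cells, stood at 1.00 under ISO (adjusted p = 0.213) and -1.83 under EE. Of the 6 genes that the study names, only Obp99a was called. The transcription factor fru stood at 0.73 (SE 0.14, adjusted p = 0.0915), p at 0.28, mbm at -0.25, jing at 0.21 and Pka-R1 at 0.10.

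The lists of glial, phototransduction, muscle and heat shock genes held 1 call. None of 13 glial genes was called, 12 lay above 0 and the median was 0.10, with the blood-brain barrier transporter gene Mdr65 at 0.53 (adjusted p = 0.127). Among 12 phototransduction genes only ninaD, a scavenger receptor for carotenoid uptake, was called (0.98, SE 0.15, adjusted p = 0.0462, low signal), and it stood at 1.20 under EE. Of all genes 0.851% were called higher. At the unadjusted threshold 3 of the 12 were higher, against 6.78% of all genes. All 12 lay above 0 with a median of 0.91, but the control arrays differed, as inaD had 10.71 and 10.73 in dTip60E431Q ISO, against 8.50 and 9.80 in control ISO. Without control ISO replicate 1 that median was 0.45. None of 15 muscle genes was called, 11 of them lay below 0 and their median was -0.44. None of 9 heat shock genes was called, and their median of -0.48 went with the high values of control ISO replicate 2.

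The listed chromatin and housekeeping genes were also without calls beyond Tip60. None of 11 other HAT genes and none of 9 deacetylase genes was called, with Sirt2 furthest from 0 among the deacetylases at 0.49 (adjusted p = 0.192) and Taf1 among the HATs at -0.33 (adjusted p = 0.386). None of 20 Polycomb, trithorax and remodelling genes, none of 19 DNA repair genes and none of 11 apoptosis genes passed. As given above, gkt and HipHop, which are not in these lists, were called, and so was mod(mdg4) at a single probe set. The 74 oxidative phosphorylation genes had a median of 0.12 with 59 above 0, the 69 mitochondrial ribosomal proteins 0.13 with 61 above 0, the 41 cytoplasmic ribosomal proteins 0.08 and the 40 proteasome genes 0.09, and none of them was called.

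**Figure D3:**
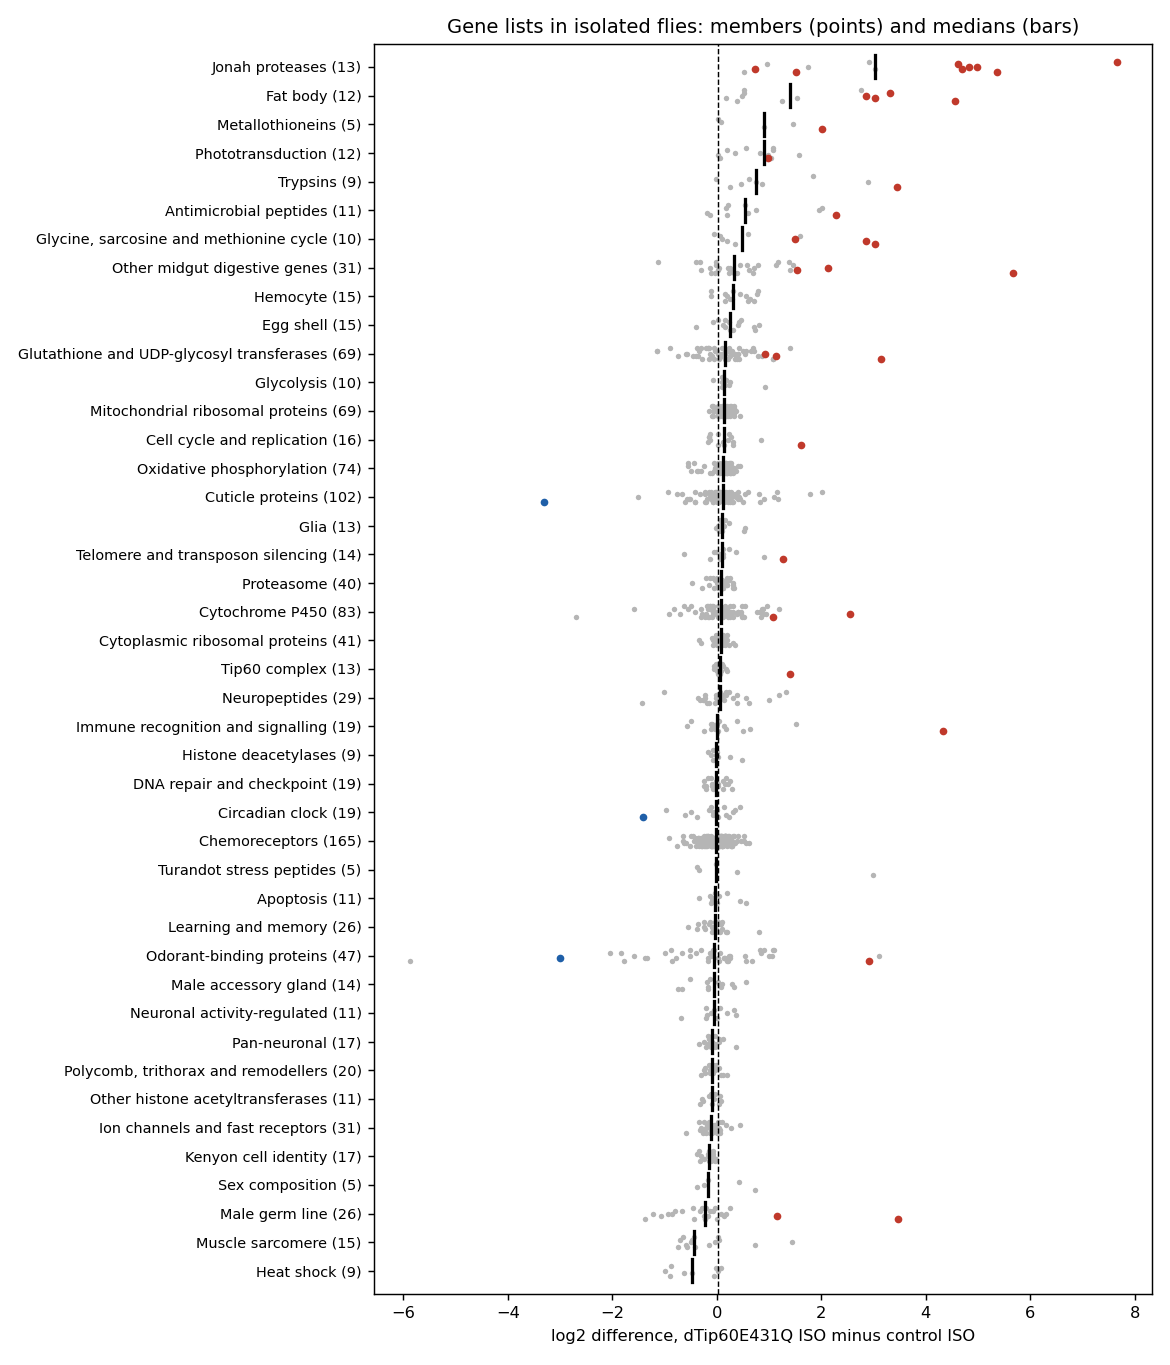
Each point is a gene at its log2 difference of dTip60E431Q ISO minus control ISO (x axis), in rows by gene list with the number measured in brackets, black bars mark list medians and the dashed line the median of all genes (0.02). Red genes were called higher and blue genes lower, and the Jonah proteases (median 3.02) and fat body genes (1.39) lie furthest from the line.

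Some calls lay side by side on the chromosome. Of 127 called genes with a position in RefSeq, 24 had a direct neighbour called in the same direction, in 12 pairs. Neighbours called in opposite directions were not counted, and no share over all genes was computed. They included Jon65Aii with Jon65Ai, Jon66Ci with Jon66Cii, Peritrophin-15b with Peritrophin-15a and CG10477 with yip7 among the increases, and CG8343 with CG11211 as the only pair among the decreases. Related neighbours may share probes or sequence, and whether these probe sets cross-hybridize was not tested.

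Most probe sets called under ISO were not called in the same direction in group-housed flies. Of the 116 probe sets called higher, 55 had the same sign under EE and 70 were within 0.5 of 0 there, and their median, 2.31 under ISO, was -0.03 under EE. Of the 34 called lower, 23 had the same sign under EE and 18 were within 0.5 of 0, with medians of -1.35 and -0.25. At an unadjusted limma p under 0.05 and 1.3-fold under EE, 21 of the 116 passed in the same direction and 29 in the other. Of the 34, 11 passed in the same direction and 4 in the other. No share over all probe sets was computed for these counts. Under EE itself 11 probe sets were called higher (0.0586%) and 23 lower (0.123%). The 2 genotype comparisons share no array. The difference between them was called for 126 probe sets, 118 more positive under ISO (0.629%) and 8 more negative (0.0426%), and among these were 79 of the 116 and 5 of the 34. That overlap is partly built in and is no independent support, since the ISO comparison that chose the calls is part of the tested difference. The 2 dTip60E431Q ISO arrays lay above all 6 other arrays in 93 of the 116 and below them in 24 of the 34. Over all probe sets the shares were 8.7% and 7.34%. The 2 are not alike, since the calls were chosen by their distance from the control ISO arrays, which are among the 6.

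**Figure D4:**
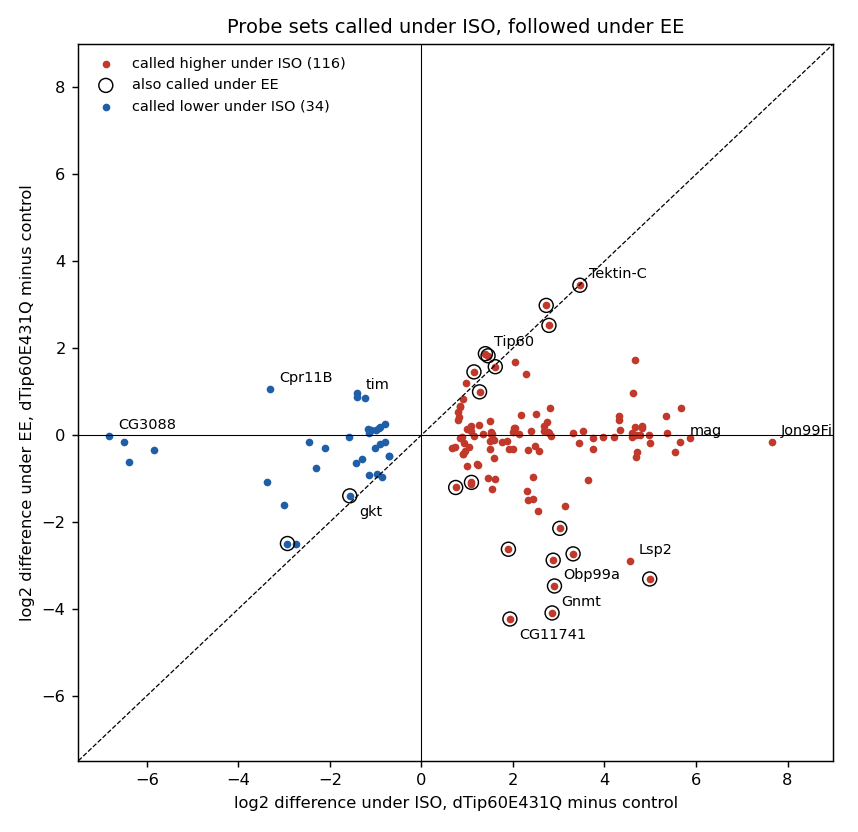
Log2 difference of dTip60E431Q minus control under ISO (x axis) and under EE (y axis) for the 150 probe sets called under ISO, with red for higher, blue for lower and a circle for those also called under EE. The dashed line marks equal differences, near which lie Tektin-C (3.46 and 3.45) and Tip60 (1.40 and 1.87), while Jon99Fi lies near 0 under EE (-0.17) and Gnmt at -4.10.

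The number of calls changed with the treatment of the ISO arrays. With the dTip60E431Q ISO pair averaged and counted as 1 sample, 48 of the 150 calls held, 46 higher and 2 lower. Jonah calls then numbered 4 of 13, fat body calls 3 of 12 and named calls 20 of 58, and Tip60, tim, Jon99Fi, Obp99a, Cpr11B and the 4 CG genes with the deepest decreases kept their differences but were no longer called. Without control ISO replicate 2 there were 952 calls, 416 higher and 536 lower, which held all 150, and the Jonah median was 4.44. Without control ISO replicate 1 there were 152 calls, 102 of them among the 150, 44 of the 58 named calls passed and the Jonah median was 2.36.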

How the data were processed

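RNA of sorted GFP-positive brain cells was hybridized to Affymetrix Drosophila arrays. The authors background-corrected, quantile-normalized and summarised the probes with RMA in R and deposited 1 log2 value per probe set and array, between 1.60 and 13.77. The sources used here give no version of RMA. The deposited log2 values were used without further scaling. Normalization to a common distribution means that a difference is relative to the rest of each array, and the number of arrays limits the precision.

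The 183 Affymetrix control probe sets were left out of 18952. Gene symbols came from the platform annotation and were updated through the gene ID (13544 matched RefSeq, 0 changed). RefSeq (Release 6) served for names and neighbours only. Columns of other samples numbered 0.

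limma 3.58.1 in R 4.3.3 fitted 1 mean per group to all 8 arrays (4 residual and 2.913 prior degrees of freedom). The contrasts were dTip60E431Q minus control under ISO, under EE, and their difference. Calls required 1.3-fold or more and, after Benjamini-Hochberg adjustment over all probe sets, a p under 0.05. Differences are between group means of log2 values, each with its moderated standard error (SE). The fit was tested on simulated data.

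Genes and lists were chosen with earlier results of these data known. A list gene was represented by its probe set with the highest mean, and lists got no test. Named were Tip60, the 20 largest differences in each direction among calls with 1 symbol (genes with only a CG or CR number were passed over except the 5 largest), the 6 genes given by the study, and from each list its defining members and the 4 or fewer of lowest unadjusted p. Other members of the lists, and genes said to be so, were named after their values were seen.

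Alternatives were the methods' t-test, 2 other normalizations, only the 4 ISO arrays, other moderation, array weights, a replicate block, low signals left out, 1 probe set per gene, no minimum fold, the dTip60E431Q ISO pair averaged and each array left out in turn.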

Additional observations from a re-analysis of the deposited data

Results flagged for a closer look

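For the following called genes the genotype difference under ISO also differed from that under EE by the test of the difference itself (limma, adjusted p between 0.00026 and 0.0376, n = 2 arrays per group), given here as the ISO difference minus the EE difference on the log2 scale. The genes were chosen by their ISO difference, which is part of the tested one, so the test is no independent support.

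Among the Jonah genes it was 7.83 for Jon99Fi, 5.31 for Jon25Biii, 4.97 for Jon65Ai, 4.71 for Jon65Aii, 4.65 for Jon44E, 1.50 for Jon66Ci and 1.02 for Jon66Cii. Outside that family it was 5.83 for mag, 4.78 for Acbp5, 4.23 for PGRP-SC2, 3.63 for thetaTry, 2.12 for Ser6 and 1.51 for Mal-A2. For each of these the EE difference was within 0.3 of 0.

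Genes whose genotype difference was negative under EE gave 7.45 for Lsp2, 6.95 for Gnmt, 6.38 for Obp99a, 6.05 for tobi, 5.17 for Sardh, 4.77 for Ugt37A3, 4.29 for Cyp309a1, 1.81 for Nmdmc and 1.35 for Ugt49B1. Smaller EE differences stood beside 3.81 for hiro, 2.87 for Ag5r2, 1.17 for GstD3 and 0.99 for Cyp4d1.

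Of genes known only by CG numbers, the value was 5.95 for CG18180, 5.92 for CG8560, 5.18 for CG18493, 5.04 for CG42397 and 4.89 for CG17633.

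In the other direction it was -4.37 for Cpr11B, -2.37 for the dimmer probe set of tim and -2.08 for fau, each with an EE difference above 0.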

How the results depend on the processing

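With 2 arrays per group the counts moved with the estimate of the spread, and the cause was not tested except where fewer probe sets or arrays entered. From only the 4 ISO arrays there were 94 calls, 11 of them lower. Without low-signal probe sets there were 75 calls (55 higher, 20 lower), 919 at the unadjusted threshold and 75 for the difference between housings, and 44% of the calls had the same sign under EE, against 52% with all probe sets. With 1 probe set per gene 21 were lower and 1201 passed unadjusted. The methods' t-test gave 0 calls after adjustment (0 higher, 0 lower) and 684 without it. With the dTip60E431Q ISO pair averaged as 1 sample there were 48 calls (46 higher, 2 lower), 1128 unadjusted and 45 between housings. Leaving out each array in turn gave 49 to 952 calls, 47 to 416 higher, 2 to 536 lower, 1233 to 3754 unadjusted, 44 to 638 between housings and a same-sign share of 37.38 to 59.81%, where the lone array of a group was assumed to vary like the others. The lowest counts came without a dTip60E431Q ISO array and the highest without control ISO replicate 2, while 10 lower calls were left without either control EE array. Replicate numbers showed no pairing of dTip60E431Q ISO with control ISO, where the correlation of their deviations was -0.0257. Over all pairs of groups it lay between -0.0862 and 0.312. It was 0.263 and 0.312 for control ISO with dTip60E431Q EE and with control EE, and whether replicates of those groups were handled together was not tested. With the replicate number as a block there were 151 calls (113 higher, 38 lower), and 124 of the 150 were among them. Of the 58 named calls, 51 passed with the block. None changed sign under any alternative, but they were chosen by this difference and most alternatives leave the difference itself unchanged. Cyclic loess lifted fru past the threshold at 0.72. Medians that moved by over 1.5 times included the phototransduction genes (0.45 without control ISO replicate 1), the Jonah proteases (4.61 without low signals) and the trypsins (2.89 without low signals).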

Other observations

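Further genes, chosen after their values were seen, filled in the increases. The eye pigment synthesis gene se had 8.67 and 8.59 in dTip60E431Q ISO, against 6.06 and 6.83 in control ISO (2.18, SE 0.27, adjusted p = 0.0187). The zinc transporter gene ZnT77C had 8.08 and 8.11 in dTip60E431Q ISO, against 7.08 and 7.13 in control ISO (0.99, SE 0.10, adjusted p = 0.00644). Under EE, se stood at 0.47 and ZnT77C at -0.72.

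Turandot and egg shell genes were followed as lists. TotC, a secreted stress peptide, had 11.42 and 11.37 in dTip60E431Q ISO, against 7.76 and 9.04 in control ISO, a difference of 2.99 that was not called (adjusted p = 0.214), and it was high in dTip60E431Q EE too, at 10.34 and 12.52. None of the 15 egg shell genes was called, all 15 were at low signal and 13 lay above 0. At the unadjusted threshold 5 were higher, against 6.78% of all genes, among them the vitelline membrane gene Vm26Ac at 0.73. None of the 14 accessory gland genes was called.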
